A study of Mus musculus with 8 samples.

Results

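The 10 genes described here are used to recognise dendritic cells and their subsets: Flt3, Itgax, Batf3, Zbtb46, Irf8, Irf4, Xcr1, Clec9a, Cd209a and Siglech. They form a list of names set without a threshold on the values, but chosen with earlier results of these data known. Each was read by 1 probe set, so that all 10 were among the 19505 genes tested. Expression was measured on Affymetrix arrays in the whole colon of 8 mice. All had acute graft-versus-host disease, where donor T cells attack the tissues of a transplanted recipient. The hBD-2 group held 4 mice given 1.2 mg/kg human beta-defensin 2, an antimicrobial peptide of epithelial surfaces, by mouth from day 0 to day 7. The PBS group held 4 mice given PBS over the same days. All 8 were wild-type BALB/c mice that had received a lethal dose of irradiation and then bone marrow and T cells of C57BL/6 donors on day 0, and each colon was collected on day 7. Neither group is a healthy colon, and the dendritic cells of such a mouse can come from recipient or donor, which these values do not separate. The question put by the study's title is what hBD-2 treatment does to gene expression in such a colon.

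Dendritic cells take up antigen, carry it to lymph nodes and present it to T cells, and in graft-versus-host disease they present recipient antigen to donor T cells. Conventional dendritic cells of type 1 (cDC1) depend on Batf3 and Irf8 and cross-present antigen to CD8+ T cells. Type 2 cells (cDC2) depend on Irf4 and mainly serve CD4+ T cells, and plasmacytoid dendritic cells (pDC) make type I interferon. The growth factor receptor Flt3 and the transcription factor Zbtb46 are shared by the conventional subsets.

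Values are log2 expression units after RMA, a method that corrects background, equalises the arrays and summarises probes to 1 value for each probe set. Differences are hBD-2 minus PBS on the log2 scale. Probe sets differ in their own brightness, so each gene is compared between mice. Its level is set against that of other genes only to mark dim probe sets. RMA values carry no detection call, so whether a probe set measured its transcript in this tissue was not tested for any member. In whole tissue, fewer cells of a type and less RNA per cell cannot be told apart. On a first principal component that held 34.6% of the variance, hBD-2 1 and hBD-2 3 lay far from the remaining mice, at 25.2 and 25.4, against -14.9 to -2.45. They also differed in some colon position genes, with the posterior homeobox gene Hoxb13 at 9.06 and 9.32, against 4.73 to 7.22 in the other 6 mice. The position genes Hoxd13, Scnn1g and Fabp2 also set this pair apart, whereas Hoxd12 and Hoxd10 did not. As a check of the tissue, the epithelial gene Vil1 read 10.72 to 10.83 in hBD-2 mice and 10.59 to 10.72 in PBS mice, and the leukocyte gene Ptprc read 8.33 to 8.99 in hBD-2 mice and 8.92 to 9.10 in PBS mice.

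No member passed the threshold, an adjusted p of 0.05 in limma over 19505 genes. The share of all genes that passed was 0.0410%, or 8 genes, all of them lower in the hBD-2 mice. An unadjusted p under 0.05 was reached by 2 of the 10 members, against 11.8% of all genes. These were Itgax on the lower side and Flt3 on the higher side. In 1 member, Itgax, the groups did not overlap, with the 4 hBD-2 mice lower. Over all genes, 6.41% were without overlap (3.60% with the hBD-2 mice lower and 2.80% with them higher). In a list of 10, both counts lie near the shares of all genes. Differences were below 0 in 5 members and above 0 in 5, with a median of 0.037, beside 0.012 over all genes, or 0.089 beside 0.020 without hBD-2 1 and hBD-2 3. Without this pair, 12.8% of all genes had an unadjusted p under 0.05 in limma, in either direction. Counts given below with the pair left out stand beside that share, which was not split by direction.

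**Figure D1:**
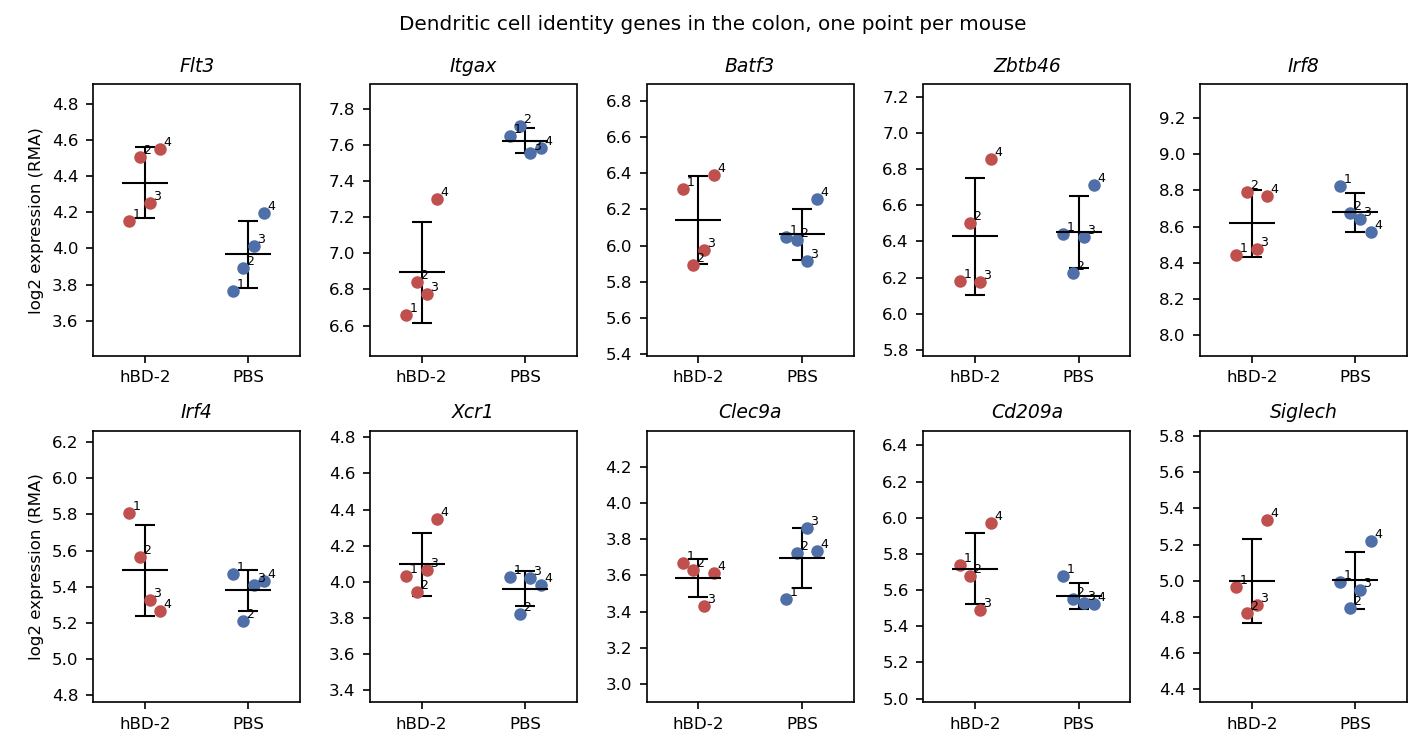
Log2 expression (RMA) of each of the 10 genes, with hBD-2 mice in red on the left and PBS mice in blue on the right of each panel. Points are mice with their replicate number, horizontal bars are means and whiskers 1 SD (n = 4), and every panel spans the same log2 range; the groups are separated in the Itgax panel, while those of the other 9 genes overlap.

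Itgax encodes the integrin CD11c, the classical surface marker of dendritic cells, which intestinal macrophages also carry. Its probe set, TC0700001876.mm.2, read 6.66, 6.84, 6.78 and 7.30 in hBD-2 mice 1 to 4, against 7.65, 7.71, 7.55 and 7.58 in PBS mice 1 to 4. The PBS mice lay close together, at 7.62 ± 0.067, while the hBD-2 mice spread more widely, at 6.89 ± 0.28 (SD, n = 4 each), with hBD-2 4 nearest to PBS. The difference was -0.73 (SE 0.13, 95% interval -1.01 to -0.45), a 1.66-fold lower level, with an adjusted p of 0.0782 in limma. A two-sided exact permutation test of this 1 gene gave its smallest possible p of 0.0286, unadjusted. Itgax passed in limma when the prior followed intensity and was robust (adjusted p = 0.0188), with array weights (0.0351), with the lower 50% of genes left out (0.0419) and without hBD-2 4 (-0.86, adjusted p = 0.0247), whereas it missed in every other setting, up to 0.282. Without hBD-2 1 and hBD-2 3 the difference was -0.55.

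Flt3 encodes the receptor for Flt3 ligand, which dendritic cell precursors need to multiply and which mature dendritic cells retain. Probe set TC0500003626.mm.2 read 4.15, 4.51, 4.25 and 4.55 in hBD-2 mice, against 3.76, 3.89, 4.02 and 4.20 in PBS mice. The groups overlapped, since PBS 4 lay above hBD-2 1. The difference was 0.40 (SE 0.12, 95% interval 0.13 to 0.66) with an adjusted p of 0.242 in limma, and the exact permutation test, two-sided and unadjusted, gave p = 0.0571. Without hBD-2 1 and hBD-2 3 it was 0.56. The Flt3 probe set was among the lower 25% of genes by mean level, and whether it measured its transcript was not tested. Flt3 lay opposite in sign to Itgax, although both are counted as markers of the same cells, and neither passed. Its ligand gene Flt3l was at -0.0068 (95% interval -0.15 to 0.14), with 8.28 to 8.41 in hBD-2 mice and 8.32 to 8.41 in PBS mice.

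The third shared gene, Zbtb46, encodes a transcription factor of conventional dendritic cells and their precursors that endothelial cells also express. It read 6.18, 6.50, 6.18 and 6.86 in hBD-2 mice, against 6.44, 6.23, 6.42 and 6.71 in PBS mice, with full overlap. The difference was -0.023 (95% interval -0.38 to 0.33) and became 0.23 without hBD-2 1 and hBD-2 3, so no direction is given. Of 9 endothelial markers measured, 9 had differences below 0 and 5 an unadjusted p under 0.05, against 5.98% of all genes on the lower side. They were led by the endothelial cadherin Cdh5 at -0.48 (adjusted p = 0.167 in limma). Their median was -0.35, and with the pair left out it was -0.17 with 3 of 9 lower. Their part in the Zbtb46 value was not tested.

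**Figure D2:**
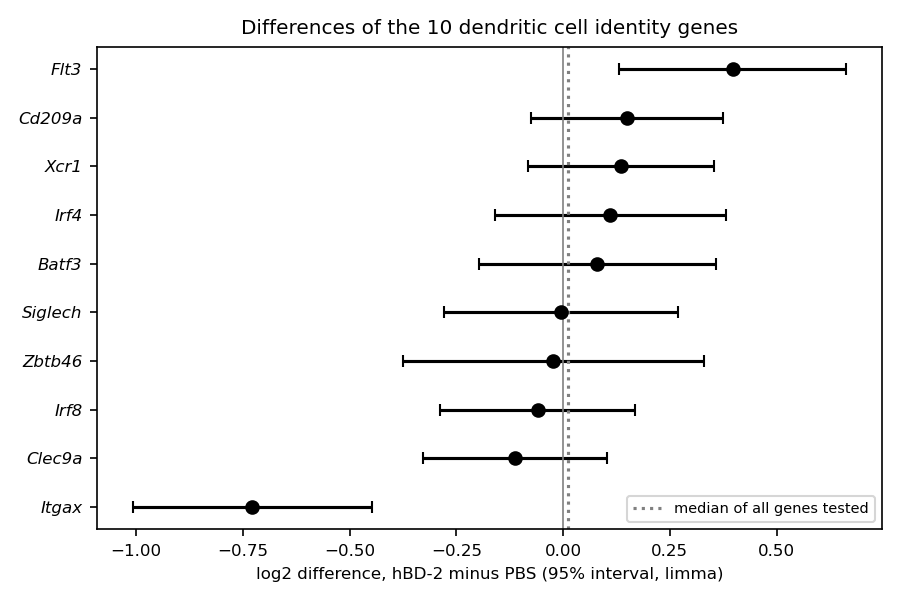
Log2 difference, hBD-2 minus PBS, of each gene with its 95% interval from limma; the dotted line marks the median of all genes tested. The intervals of Itgax (-1.01 to -0.45) and Flt3 (0.13 to 0.66) exclude 0, and those of the other 8 genes include it.

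Among the genes of cDC1, Batf3 encodes the factor that maintains their program together with Irf8. Batf3 read 6.31, 5.89, 5.98 and 6.39 in hBD-2 mice, against 6.05, 6.03, 5.91 and 6.26 in PBS mice, a difference of 0.080 (95% interval -0.20 to 0.36), or -0.0020 without hBD-2 4 and 0.16 without hBD-2 2. The interferon regulatory factor Irf8, which also directs pDC and is expressed in B cells and macrophages, read 8.44, 8.79, 8.47 and 8.77 in hBD-2 mice. In PBS mice it read 8.83, 8.68, 8.64 and 8.57, and the difference was -0.060 (95% interval -0.29 to 0.17). Both genes overlapped between the groups. The hBD-2 mice formed 2 levels of Irf8, with hBD-2 1 and hBD-2 3 below all 4 PBS mice, and without this pair the difference was 0.10.

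Xcr1, the receptor through which cDC1 follow the chemokine Xcl1 to T cells and NK cells, read 4.03, 3.95, 4.07 and 4.35 in hBD-2 mice. The PBS values were 4.03, 3.82, 4.02 and 3.98, with a difference of 0.14 (95% interval -0.083 to 0.35). It was at 0.052 without hBD-2 4, the mouse with the highest value. Clec9a, the receptor by which cDC1 sense dead cells, read 3.67, 3.63, 3.43 and 3.61 in hBD-2 mice, against 3.47, 3.73, 3.86 and 3.73 in PBS mice. Its difference was -0.11 (95% interval -0.33 to 0.10), or -0.057 without PBS 3 and -0.19 without PBS 1. The groups overlapped in both genes, and the 2 receptors of the same cell type had differences of opposite sign, neither of which passed. Both probe sets were among the lower 25% of genes by mean level, and both intervals included 0. Xcl1 itself was at 0.12 (95% interval -0.17 to 0.40), or -0.086 with the pair left out.

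For cDC2, the factor Irf4 read 5.81, 5.56, 5.32 and 5.26 in hBD-2 mice, against 5.47, 5.21, 5.41 and 5.43 in PBS mice. The 2 highest values were those of hBD-2 1 and hBD-2 2, the groups overlapped, and the difference was 0.11 (95% interval -0.16 to 0.38), or 0.0040 without hBD-2 1 and 0.034 with the pair left out. Irf4 is also a factor of plasma cells and activated T cells. Of 8 plasma cell markers none had an unadjusted p under 0.05, against 11.8% of all genes (median of the markers -0.060, or -0.10 with the pair left out). In a list of 8 this count lies near that share. Of 11 T and NK cell markers, 3 were lower, against 5.98% of all genes, with a median of -0.19 (-0.47 with the pair left out). The part of these cells in the Irf4 value was not tested. Cd209a, a lectin of the DC-SIGN family found on cDC2 and monocyte-derived cells, read 5.74, 5.68, 5.49 and 5.97 in hBD-2 mice. The PBS values were 5.68, 5.55, 5.53 and 5.53, and the difference was 0.15 (95% interval -0.076 to 0.37), or 0.25 without hBD-2 1 and hBD-2 3 and 0.066 without hBD-2 4. Siglech, a lectin of pDC, read 4.96, 4.82, 4.87 and 5.33 in hBD-2 mice, against 4.99, 4.85, 4.95 and 5.22 in PBS mice. In each group mouse 4 was highest, and the difference was -0.0053 (95% interval -0.28 to 0.27).

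The adjusted p of the 8 members other than Itgax and Flt3 ran from 0.591 to 0.992 in limma. Each of their 95% intervals included 0, with outermost bounds of -0.38 for Zbtb46 and 0.38 for Irf4. Without 1 array, the difference of each of these 8 genes moved by over 1.5 times or changed sign. The mouse hBD-2 4 held the highest value of its group in 7 of the 10 genes, and PBS 4 in 4, among them Flt3, Batf3, Zbtb46 and Siglech in both cases. Within groups, as deviations from each group's mean over 8 arrays, Siglech went with Xcr1 at r = 0.83, with Zbtb46 at 0.83 and with Batf3 at 0.83. These were the highest values among the pairs of members. Genes outside the list went with Siglech more closely, such as Stk32c and Tnnt1, each at 0.98. The probe sets of Siglech and Xcr1 were among the lower 25% of genes by mean level. The same measure was -0.70 between Itgax and Irf4 and -0.087 between Xcr1 and Clec9a. These are descriptions over 8 arrays that share their normalization.

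The genes whose pattern was most like that of Itgax over the 8 arrays, among 19504 other genes, were Csf2rb, Ctsz and C1qc, with Pearson's r of 0.98, 0.97 and 0.96. Within groups the r was 0.91, 0.88 and 0.81. Csf2rb encodes the common beta chain of the receptors for GM-CSF, IL-3 and IL-5, Ctsz a lysosomal cathepsin, and C1qc a chain of complement C1q, made by tissue macrophages. None of these 3 is a member of the list, and none passed: Csf2rb was at -0.48 (adjusted p = 0.0824), Ctsz at -0.24 (0.268) and C1qc at -0.55 (0.104) in limma. For Flt3 they were Gm5124, Bpifb9b and Ssc4d, with r of 0.98, 0.97 and 0.97. Across the 10 members, no member was among the 3 genes most like another one, and the highest r with a gene outside the list ran from 0.95 for Clec9a to 0.985 for Cd209a.

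**Figure D3:**
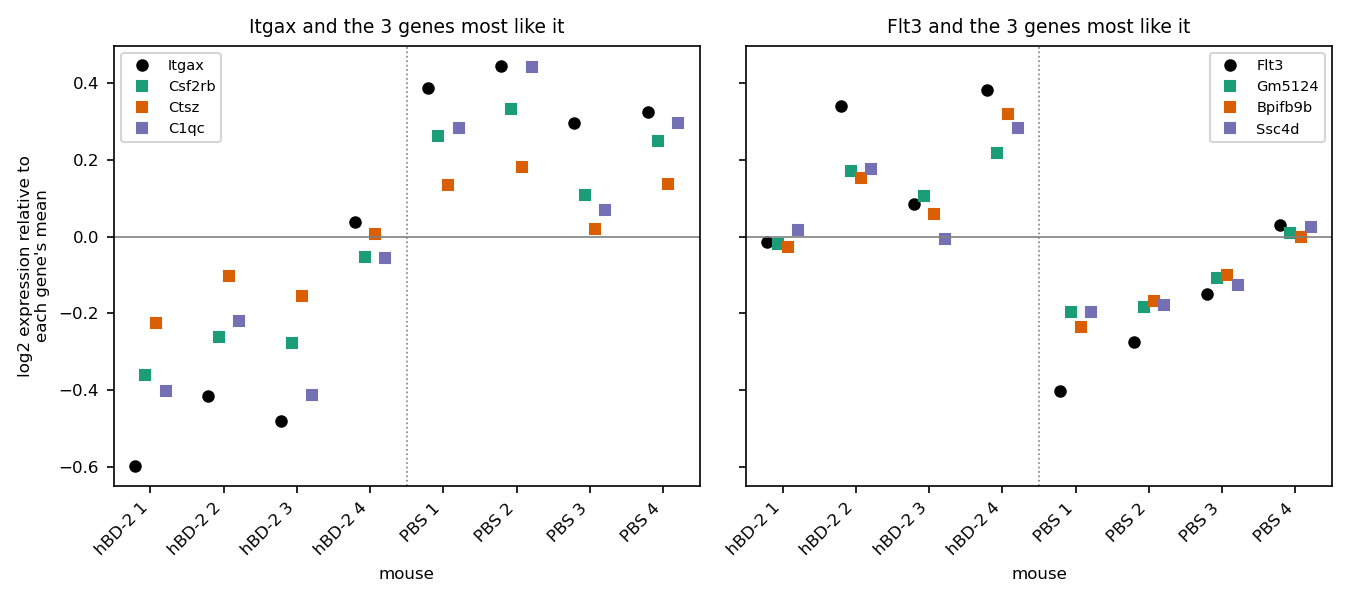
Log2 expression relative to each gene's mean in each of the 8 mice, for Itgax (left) and Flt3 (right) in black and the 3 genes most like each in colour; hBD-2 mice stand left of the dotted line and PBS mice right of it. For Itgax, Csf2rb and C1qc, hBD-2 4 is the hBD-2 mouse closest to the PBS mice.

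Promoter windows are shown for Itgax and Flt3, the members past an unadjusted p of 0.05 with opposite signs, and for Zbtb46, which shares letters with Itgax. Each is the 250 bases before the annotated start, from RefSeq on GRCm38.p6, written in the direction of the gene, with capitals marking matches to the motifs named after them. The windows lie at chr7:128129300-128129549 on the plus strand, chr5:147400490-147400739 on the minus strand and chr2:181424389-181424638 on the minus strand.
Itgax: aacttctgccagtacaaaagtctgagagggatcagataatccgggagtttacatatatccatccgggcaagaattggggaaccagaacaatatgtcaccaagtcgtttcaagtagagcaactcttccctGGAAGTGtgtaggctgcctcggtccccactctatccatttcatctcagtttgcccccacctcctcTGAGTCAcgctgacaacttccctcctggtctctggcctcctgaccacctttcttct
Flt3: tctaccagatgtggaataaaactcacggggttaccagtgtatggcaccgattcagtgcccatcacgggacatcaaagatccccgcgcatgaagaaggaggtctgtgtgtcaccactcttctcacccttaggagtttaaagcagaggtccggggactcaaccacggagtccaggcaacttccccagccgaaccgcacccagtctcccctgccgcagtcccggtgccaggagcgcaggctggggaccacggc
Zbtb46: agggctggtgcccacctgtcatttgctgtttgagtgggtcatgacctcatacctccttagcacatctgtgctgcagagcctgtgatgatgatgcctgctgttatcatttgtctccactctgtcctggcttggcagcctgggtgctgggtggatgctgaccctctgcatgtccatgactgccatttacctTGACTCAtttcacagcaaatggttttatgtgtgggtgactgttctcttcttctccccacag
The motifs were searched on both strands in the 11 windows of the 10 members and in all 32851 windows of the table. The AP-1 letters TGANTCA, read by Jun and Batf family proteins, were found in Itgax and Zbtb46, and in 6.75% of all windows. The ETS letters GGAAGTG were found in Itgax, Cd209a and Siglech, and in 8.55% of all windows. A PU.1-type ETS motif, GAGGAAG, whose letters overlap the ETS motif in part, was found in Batf3 and in 10.6% of all windows. In Itgax the ETS letters begin at -121 and the AP-1 letters at -56 from the start, and in Zbtb46 the AP-1 letters begin at -61. The Flt3 window holds none of the 3 motifs.

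Regulators and growth factors of dendritic cell development were next examined, of which 24 of 25 were measured. None passed over all genes, 7 were lower and 0 higher at an unadjusted p under 0.05, against 5.98% and 5.85% of all genes, and the median was -0.17. With the pair left out, 5 were lower and 0 higher, with a median of -0.12. Csf1r, at -0.42, is counted here and again among the macrophage markers. Spi1, encoding PU.1, a factor that all myeloid cells require, read 9.90, 9.88, 9.51 and 9.70 in hBD-2 mice, against 10.35, 10.58, 10.32 and 10.40 in PBS mice. The groups did not overlap, and the difference was -0.66 (SE 0.10, adjusted p = 0.0634 in limma). Csf2rb read 7.33, 7.43, 7.42 and 7.64 in hBD-2 mice, against 7.96, 8.03, 7.80 and 7.94 in PBS mice, again without overlap. Csf1, the growth factor of macrophages, was at -0.48 (adjusted p = 0.0634) and Csf2ra, the GM-CSF receptor alpha chain, at -0.32 (0.253). GM-CSF itself, Csf2, was at 0.15. Id2, which cDC1 need, was at -0.25 (-0.44 with the pair left out) and Nfil3, which acts before Batf3, at -0.20 (0.073 with the pair left out). Batf, Jun and Junb, whose proteins bind AP-1 sites, were at -0.062, -0.24 and -0.097, and none passed. With the pair left out they were at -0.037, -0.16 and -0.16.

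Further genes of each subset were compared by the same fit, and none passed over all genes. Their counts at an unadjusted p under 0.05 stand beside 5.98% of all genes lower and 5.85% higher. Of 13 further cDC1 genes, 2 were lower and 1 higher at an unadjusted p under 0.05, with a median of 0.038 (0.024 with the pair left out). They were the adhesion molecule Cadm1 at -0.26, the lysosomal thioesterase Ppt1 at -0.18 and Gcsam at 0.37, while the endosomal GTPase Rab7b was at -0.28, or -0.13 with the pair left out. Of 14 further cDC2 genes, 4 were lower and 0 higher, with a median of -0.099. These 4 were Sirpa, an inhibitory receptor that macrophages share, at -0.34, the lectins Clec10a at -0.40 and Mgl2 at -0.56, and Clec4a3 at -0.63. Leaving out the pair hBD-2 1 and hBD-2 3 gave -0.21 for Clec4a3 and -0.84 for Mgl2, and 4 of the 14 were lower at that threshold. The part of macrophages in the cDC2 values was not tested.

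Of 15 pDC genes measured of 17 listed, 1 was lower and 2 higher at an unadjusted p under 0.05, with a median of 0.0018. The shares of all genes were 5.98% lower and 5.85% higher. With the pair left out, 2 were lower and 1 higher and the median was -0.029. Tlr7, an RNA sensor of endosomes in pDC, macrophages and B cells, was at -0.96 (SE 0.16, adjusted p = 0.0707 in limma). It read 7.10, 7.22, 6.69 and 7.23 in hBD-2 mice, against 8.16, 8.34, 7.85 and 7.71 in PBS mice, without overlap. Cox6a2, a cytochrome c oxidase subunit of muscle and pDC, was at 0.41 (adjusted p = 0.0824), also without overlap, and Klk1, a kallikrein that epithelia secrete too, at 0.70, or 0.37 with the pair left out. Klk1 read 11.62, 11.22, 11.23 and 10.32 in hBD-2 mice, against 10.29, 10.31, 10.60 and 10.38 in PBS mice, so that hBD-2 4 lay among the PBS mice. Smim5 was at 0.20, and Tcf4, the E protein that pDC require, at -0.16 (-0.095 with the pair left out). The other mouse Cd209 genes, 6 lectins of the family of Cd209a, had a median of -0.16, and 1 was lower at that threshold. With the pair left out the median was -0.34 and 3 of 6 were lower, where 12.8% of all genes passed that p in either direction. The 1 gene over all mice was Cd209e, at -0.42, with 5.51 to 5.80 in hBD-2 mice and 6.01 to 6.35 in PBS mice. Cd209d was at -0.30, Cd209b at -0.22 (-0.41 with the pair left out) and Cd209f at 0.080. Cross-hybridisation between such related genes cannot be read from these values.

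Genes of mature and migrating dendritic cells, 22 measured of 24, had 5 lower and 1 higher at an unadjusted p under 0.05. Over all genes, 5.98% were lower and 5.85% higher. The median of the list was -0.12. With the pair left out, 7 were lower and 1 higher, and the median was -0.18. Fscn1, the actin-bundling fascin of mature dendritic cells, was at -0.53 (adjusted p = 0.124 in limma), the adaptor Traf1 at -0.46 (0.0979), Cd274, which encodes PD-L1, at -0.34 and Tmem123 at -0.22. These 4 genes, named because they had the lowest p of the list, were each lower in every hBD-2 mouse than in any PBS mouse. They were the 4 of 22 without overlap, against 3.60% of all genes. Ccr7, the receptor that guides dendritic cells to lymph nodes, read 6.76, 6.48, 6.54 and 6.55 in hBD-2 mice, against 6.71, 6.51, 6.50 and 6.65 in PBS mice. Its difference was -0.013 (95% interval -0.20 to 0.18). Of 20 ligands, cytokines and enzymes, 2 were lower and 0 higher: Tgfb1 at -0.35 and Il1b, 2.01-fold lower, both also products of macrophages. With the pair left out, 4 of the 20 were lower and 1 higher. Il6 was at -0.73, or -0.38 with that pair left out, and Il27 was at 0.20. Of 12 MHC class II presentation genes, 2 were lower, the lysosomal proteases Lgmn at -0.43 and Ctss at -0.23, and the median was 0.038. It turned to -0.21 without hBD-2 1 and hBD-2 3, with 2 lower and 1 higher, so no direction is given for this list. H2-Ob and H2-Oa, which modulate peptide loading, were at 0.18 and -0.20, or 0.32 and -0.36 with the pair left out.

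**Figure D4:**
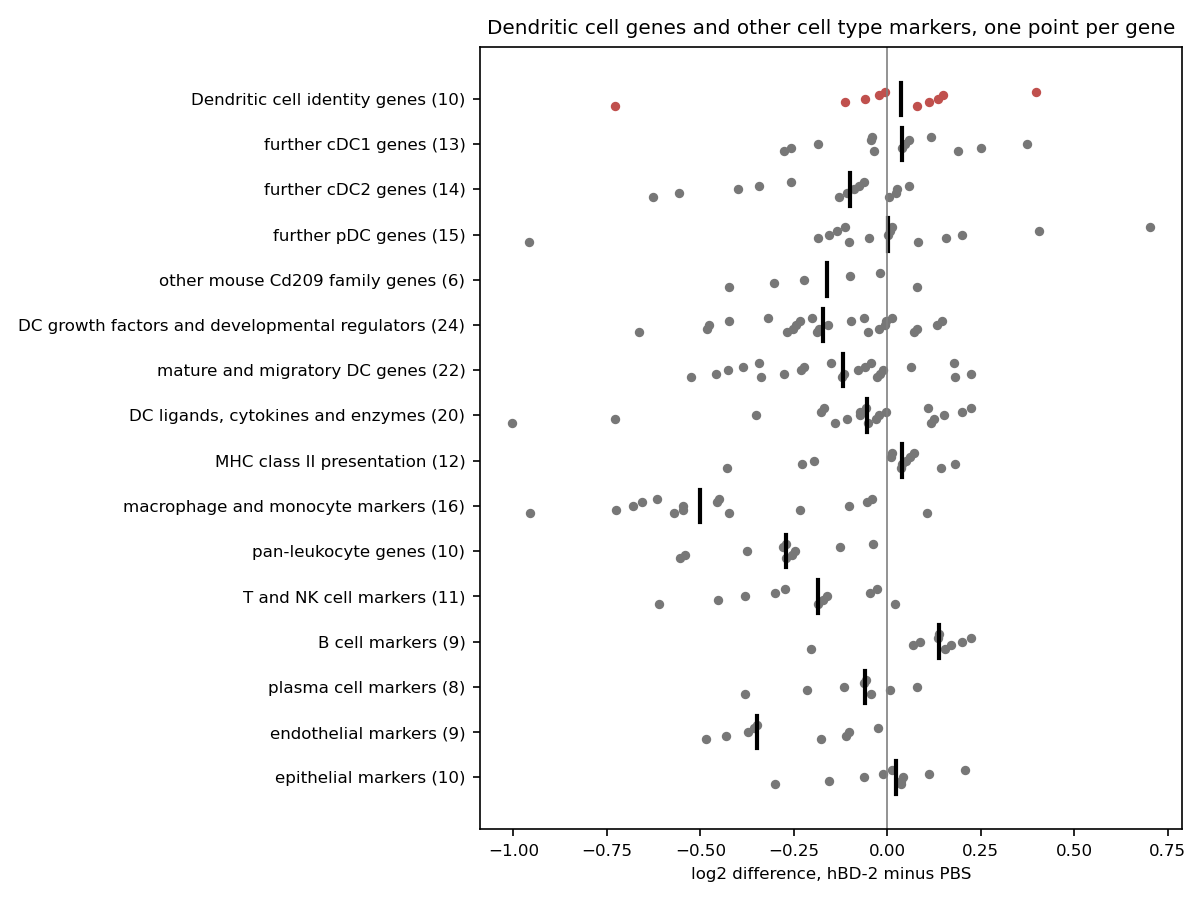
Log2 difference, hBD-2 minus PBS, of every measured gene in each list, with 1 point for each gene (the number in brackets), black bars at the list medians and the 10 identity genes in red. The identity genes centre near 0 with Itgax at -0.73 and Flt3 at 0.40, while the median of the macrophage and monocyte markers lies at -0.50.

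Itgax is shared with macrophages, whose markers were therefore set beside it. That list, too, was chosen with earlier results of these data known. Of 16 macrophage and monocyte markers measured, 15 had differences below 0, 11 were lower at an unadjusted p under 0.05, and 8 were lower in every hBD-2 mouse than in any PBS mouse. Their median was -0.50. Over all genes, 9077 of 19505 had differences below 0, 5.98% were lower at that p and 3.60% were lower without overlap. Averaged over the 16 genes, each relative to its own mean, their level was -0.34 to -0.095 in hBD-2 mice and 0.10 to 0.36 in PBS mice. Aif1, which macrophages use to remodel actin, fell by 0.96 (adjusted p = 0.0467 in limma), the 1 listed gene that passed. Aif1 also passed in limma when the prior followed intensity and was robust (adjusted p = 0.00504) and with array weights (0.0344). The same held with the lower 25% of genes left out (0.0424), arrays centred on their medians (0.0465) and probe sets averaged (0.0466). The 50% filter removed Aif1. It missed with each array left out in turn (adjusted p = 0.0540 to 0.227) and without hBD-2 1 and hBD-2 3 (0.124). It also missed with the replicate number as a block (0.0924) and with quantile normalization repeated (0.0632). Differences in the settings that missed were -1.04 to -0.89. The mannose receptor Mrc1 at -0.72, C1qa at -0.66 and Itgam, the alpha chain of the sister integrin CD11b, at -0.62 did not pass. Without hBD-2 1 and hBD-2 3, 8 of the 16 were lower at an unadjusted p under 0.05, their median was -0.29 and Itgam was at -0.29. The share of all genes past that p was then 12.8% in either direction, beside 5.98% lower and 5.85% higher over all mice. The median of pan-leukocyte genes was -0.27 with 6 of 10 lower over all mice, and -0.46 with 8 of 10 lower without the pair. Their level averaged in the same way was -0.33 to -0.019 in hBD-2 mice and 0.020 to 0.25 in PBS mice. T and NK cell markers had a median of -0.19 with 3 of 11 lower, or -0.47 with 8 of 11 lower without the pair. B cell markers had a median of 0.14 with 1 of 9 higher, or 0.20 with 4 of 9 higher and 1 lower without it. The part of these cells in the Itgax value was not tested, and whether Itgax differed more than Flt3 or the other members was not tested either.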

How the data were processed

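Whole-colon RNA of 8 mice was labelled with the manufacturer's kit for small RNA amounts and measured on 1 array per mouse, and groups and replicate numbers come from the sample titles. The authors deposited log2 values for 22203 probe sets; the submitters' processing notes name oligo and RMA, without versions. No source used here gives the array's genome build. Platform annotation named 1 gene for 19572 probe sets, and the other 2631 were unnamed here. For 55 genes with several probe sets the one with the highest mean was kept, which gave 19505 genes. The labels do not say whether the mice came from separate experiments. The p-values set each difference against the spread between these mice, and whether that holds any spread between experiments is not known.

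Differences were tested with limma 3.58.1 (lmFit, eBayes) in R 4.3.3 on the log2 values as deposited, two-sided, with Benjamini-Hochberg adjustment over all 19505 genes, a threshold of 0.05, no minimum fold and no filter on dim probe sets. Standard errors and 95% intervals are the moderated ones. The fit was tested on simulated data. The members, lists, tests and the rule for naming genes were chosen with earlier results of these data known. The rule named all members, the 4 genes with the lowest p in every other list, and set partners such as Flt3l and Spi1. It also named the colon position genes Hoxb13 and Fabp2, which gave 88 genes. The 3 genes most like each member were named beside these as a description, without adding to the 88. Lists of other cell types are given mainly by their counts. Same-numbered mice were not paired: deviations of same-numbered mice correlated at -0.15 to 0.24. Alternatives were a trended robust prior, filters, scalings, array weights, other probe set rules, the replicate number as a block and leaving out arrays. Figures were drawn with matplotlib 3.10.9. Signal over background cannot be read from RMA values, and precision is set by having 4 arrays a group.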

Additional observations from a re-analysis of the deposited data

Results flagged for a closer look

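In 88 genes named by rule, 14 of 176 groups of 4 mice held 1 mouse far from the other 3, where about 5% of groups are marked by chance. Among the members this was Cd209a in PBS 1, at 5.68, against 5.53 to 5.55 in the other PBS mice. Among other dendritic cell genes, Sirpa was at 8.96 in hBD-2 3 (others 9.29 to 9.34), Clec4a3 at 6.63 in PBS 2 (6.22 to 6.27), Mgl2 at 7.00 in PBS 4 (7.45 to 7.49) and Cd209f at 5.94 in PBS 3 (6.33 to 6.36). Csf2ra was at 7.82 in hBD-2 2 (7.40 to 7.44), Fscn1 at 6.57 in PBS 3 (6.86 to 6.92), Tcf4 at 9.79 in hBD-2 3 (10.04 to 10.05) and Jun at 9.46 in PBS 3 (9.06 to 9.11). Among markers of other cells, Mrc1 was at 9.67 in hBD-2 2 (9.27 to 9.33), Cd53 at 8.38 in hBD-2 2 (8.63 to 8.69), Jchain at 6.93 in PBS 4 (9.12 to 9.54), Kdr at 7.37 in PBS 3 (7.59 to 7.63) and Cdx1 at 9.96 in hBD-2 3 (9.73 to 9.75).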

How the results depend on the processing

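The differences of Flt3, Itgax, Irf4, Xcr1, Clec9a and Cd209a kept their sign in every setting run. Itgax, which missed the threshold at first, passed at -0.73 with the trended robust prior and with the lower 50% of genes left out, and at -0.79 with array weights, which gave 1 member called in each of these settings. With single arrays left out it ran from -0.86 to -0.65, and 0 to 1 members were called. Flt3, at 0.40, had an unadjusted p under 0.05 in limma and p = 0.0571 in the exact permutation test. Signs near 0 turned: Siglech was at 0.015 with arrays centred on their medians, and without hBD-2 1 and hBD-2 3 Siglech was at 0.076, Zbtb46 at 0.23 and Irf8 at 0.10. With single arrays left out Siglech ran from -0.12 to 0.066, Zbtb46 from -0.17 to 0.064 and Batf3 from -0.0020 to 0.16. Over all genes, 8 passed at first, 91 with the trended robust prior, 68 with array weights, 16 and 47 with the lower 25% and 50% left out, 4 with quantile normalization repeated and 5 with all probe sets tested. With limma without hBD-2 1 and hBD-2 3 there were 0 (2503 at an unadjusted p under 0.05), and with single arrays left out 0 to 11. With the replicate number as a block limma called 0 genes (2566 at an unadjusted p under 0.05) and no member, Itgax at -0.73 with adjusted p = 0.111; 1 of 4 hBD-2 mice correlated best with its own number. The filters change the number of genes tested and the omissions the number of samples; otherwise the cause was not tested. Of the 10 members, 6 remained with the lower 25% of genes left out, which removed Flt3, Xcr1, Clec9a and Siglech, and 2 with the lower 50%, Itgax and Irf8. Without hBD-2 1 and hBD-2 3, 36 of the 88 named genes moved by over 1.5 times or changed sign.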
